A study of Homo sapiens with 12 samples.

Results

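The 10 transcription factors known from the megakaryocyte-erythroid branch of blood formation, GATA1, GATA2, TAL1, LMO2, LYL1, NFE2, FLI1, KLF1, MYB and RUNX1, were followed through a treatment of cultured cells with the plant compound DMAG. They were found by symbol in the mRNA table, which held all 10 of them among 19659 genes. Their 47 transcripts were summed to 1 level per gene, in FPKM (fragments scaled to transcript length and to the library total), and were also read singly. The cells were labelled HEL, an established human erythroleukaemia line, with no genetic change named. The DMAG group had 40 µg/ml of the compound, an ellagic acid glucoside, for 3 days, and for the controls no dose, day or vehicle was recorded. There were 3 control and 3 DMAG libraries of RNA depleted of ribosomal RNA, and 3 and 3 small RNA libraries. Whether the libraries of a group are separate cultures is not in the labels, and p-values then measure no more than the spread between these libraries, which may be technical. Group values are given as mean ± SD (n = 3).

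These factors work as complexes. GATA factors bind DNA beside a dimer of TAL1 or its relative LYL1 with an E protein, and LMO2 and LDB1 bridge the parts. GATA1 and KLF1 drive red cell genes, GATA2 serves progenitors and mast cells, and NFE2, a dimer with a small MAF protein, serves platelet formation and globin genes. FLI1, an ETS factor, and RUNX1 act in the megakaryocyte programme, and MYB keeps progenitors dividing.

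The label was checked against markers that HEL cells are known to express, and the levels went against it. GP9, a platelet receptor subunit, was at 0 in all 6 libraries. Summed over 7 megakaryocyte markers, levels were 0.0994 to 0.217 FPKM in controls and 0.357, 0.371 and, in DMAG library 3, 0.773 FPKM with DMAG, and 0 of the 7 reached the level tested. Of 11 erythroid markers, EPOR, the erythropoietin receptor, was the only 1 that reached 1 FPKM in the controls, at 3.71 ± 0.270 FPKM. In contrast, 9 of 9 granulocyte precursor markers were at 1 FPKM or more in controls, with summed levels of 2361 to 2511 FPKM in controls and 1351 to 1556 FPKM with DMAG. Single markers of that list went both ways: 5 were lower, and AZU1, CEBPE, CSF3R and SPI1 were higher. The granule protein genes MPO (1089 ± 29.1 FPKM in controls) and PRG2 (1564 ± 253 FPKM in controls) were among the most abundant of the markers. Markers of eosinophils and basophils summed to 1815 to 2296 FPKM in controls and 2154 to 2598 FPKM with DMAG, so the sums overlapped. PRG2, the most abundant of that list, did not pass. CLC (320 ± 14.5 to 523 ± 12.9 FPKM), RNASE2 (32.6 ± 2.49 to 74.9 ± 3.96 FPKM) and RNASE3 (1.06 ± 0.299 to 3.91 ± 0.527 FPKM) rose. EPX of that list fell from 79.6 ± 0.928 to 39.1 ± 2.90 FPKM. Markers of monocytes summed to 169 to 174 and 431 to 481 FPKM, of which LYZ, shared with granulocyte precursors, made up 168 ± 2.61 and 444 ± 26.0 FPKM. Of the 7 monocyte markers 4 lay under the level tested. Of the 3 tested, LYZ and ITGAM (1.57 ± 0.136 to 4.68 ± 0.329 FPKM) rose and FCGR1A (1.98 ± 0.124 to 1.20 ± 0.154 FPKM) fell. The part of these marker shifts in the results that follow was not tested. In bulk RNA, fewer cells of a type and less RNA per cell cannot be told apart.

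DMAG library 3 of the RNA-Seq also stood apart in adult red cell markers, which summed to 1946 FPKM there and to at most 0.268 FPKM in the other 5 libraries. HBB was at 1367 FPKM, HBA1 at 375 FPKM and HBA2 at 200 FPKM in that library. The results it moves most, LMO2 and the erythroid targets, are given with and without it.

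Of the 10 factors, 7 were expressed well enough to be tested (a mean of at least 0.5 FPKM over the 6 libraries), and 3 were not. With DMAG, 5 rose and 2 fell: NFE2, GATA2, MYB, FLI1 and LMO2 rose, and LYL1 and RUNX1 fell (limma on log2(FPKM + 1), Benjamini-Hochberg adjusted p under 0.05 over all genes). GATA1, TAL1 and KLF1, the factors closest to red cell identity, lay under 0.7 FPKM in every library. The response to DMAG was broad: 22.4% of the 10394 genes tested were higher and 26.1% lower, 48.6% in all, and the median log2 change over all genes was -0.01. Libraries of the 2 groups did not overlap for 7 of 7 tested factors. The same held for 27.9% of all genes tested with DMAG higher and for 31.6% with DMAG lower. Each of the 7 was above 3 FPKM in every library, so none reached the test through 1 group alone.

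**Figure D1:**
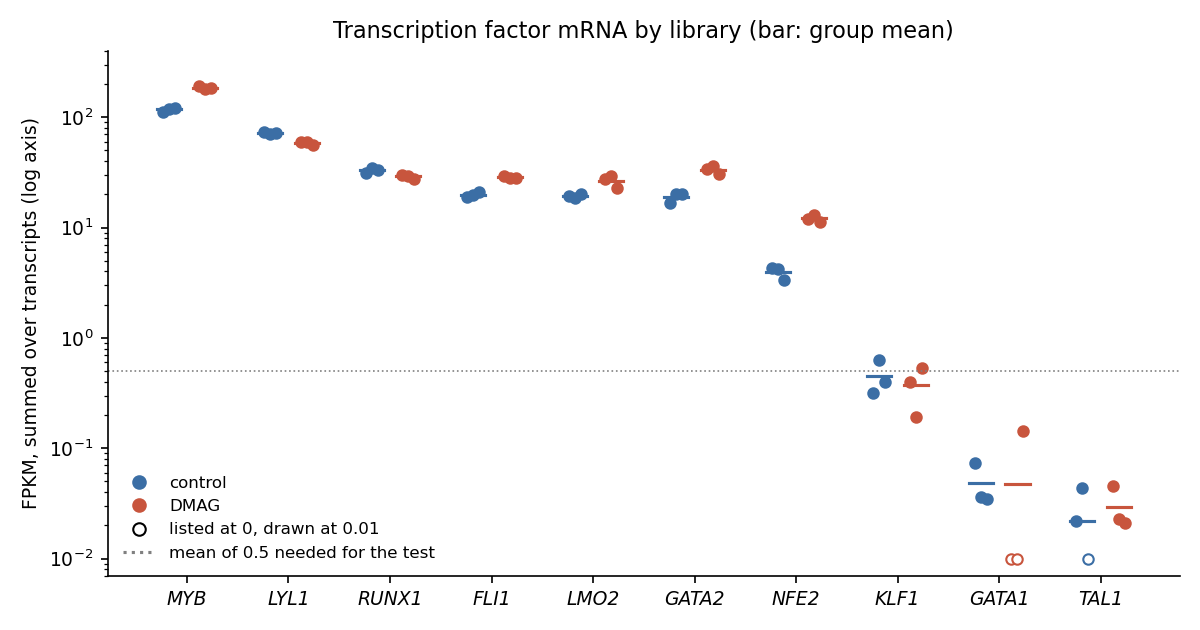
FPKM of each factor, summed over transcripts, on a log axis, with 1 point per library (blue, control; red, DMAG) and a bar at the group mean. MYB stands highest, 7 factors lie above the dotted line at 0.5 FPKM with groups apart, and KLF1, GATA1 and TAL1 lie at or near the bottom with groups overlapping.

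NFE2 (ENSG00000123405, chr12:54292111-54301015, coordinates here and below from RefSeq on GRCh38.p14), the large subunit of the platelet and erythroid factor NF-E2, had the largest change among the 7. The control libraries held 4.34, 4.17 and 3.35 FPKM of NFE2 and the DMAG libraries 12.0, 13.0 and 11.3 FPKM. The lowest DMAG library lay more than 2-fold above the highest control. The means were 3.95 ± 0.527 and 12.1 ± 0.824 FPKM, 3.06-fold higher with DMAG (log2 change 1.41, SE 0.0950, adjusted p = 0.000137). Even so, NFE2 stayed the lowest of the 7 expressed factors in both groups.

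GATA2 (ENSG00000179348, chr3:128479422-128493201), the GATA factor of progenitors and mast cells, was at 16.6, 20.2 and 20.3 FPKM in controls and at 33.8, 35.8 and 30.6 FPKM with DMAG. It rose 1.75-fold, from 19.0 ± 2.14 to 33.4 ± 2.66 FPKM (log2 change 0.78, SE 0.0957, adjusted p = 0.00109). Its relative GATA1 (ENSG00000102145, chrX:48786590-48794311), which takes over from GATA2 as red cells and megakaryocytes mature, was at 0.0738, 0.0365 and 0.0350 FPKM in controls. With DMAG GATA1 was listed at 0 in 2 libraries and at 0.142 FPKM in library 3, the one with adult globin mRNA. Of the GATA pair, then, the progenitor factor was expressed and rose, and the maturation factor was near the floor in both groups.

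MYB (ENSG00000118513, chr6:135181308-135219172) was the most abundant of the 10 factors in both groups. It was at 112, 119 and 122 FPKM in controls and at 192, 180 and 182 FPKM with DMAG. The rise was 1.56-fold, from 118 ± 4.92 to 184 ± 6.38 FPKM (log2 change 0.64, SE 0.0452, adjusted p = 0.000159), and the lowest DMAG library lay well above the highest control.

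FLI1 (ENSG00000151702, chr11:128685132-128813267), an ETS activator of megakaryocyte genes, was at 18.9, 19.8 and 21.1 FPKM in controls and at 29.6, 28.4 and 28.2 FPKM with DMAG. It rose 1.44-fold, from 19.9 ± 1.11 to 28.7 ± 0.729 FPKM (log2 change 0.51, SE 0.050, adjusted p = 0.000483). KLF1 (ENSG00000105610, chr19:12884422-12887201), the erythroid factor with which FLI1 is known to compete, was at 0.315, 0.629 and 0.399 FPKM in controls and at 0.398, 0.190 and 0.528 FPKM with DMAG. The KLF1 libraries overlapped, and with the filter on low values removed it did not pass (adjusted p = 0.659).

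LMO2 (ENSG00000135363, chr11:33858576-33892076), the LIM protein that bridges GATA factors to TAL1 or LYL1, was at 19.5, 18.5 and 20.0 FPKM in controls and at 27.5, 29.3 and 22.8 FPKM with DMAG. It rose 1.37-fold, from 19.4 ± 0.777 to 26.5 ± 3.36 FPKM (log2 change 0.43, SE 0.0933, adjusted p = 0.0104). The lowest DMAG value was that of the library with adult globin mRNA, and without it the log2 change was 0.53 (adjusted p = 0.00191).

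LYL1 and TAL1 are close relatives that fill the same place in the complex, and here their levels were far apart. LYL1 (ENSG00000104903, chr19:13099033-13102858) was at 73.4, 70.9 and 72.3 FPKM in controls and at 59.5, 59.8 and 55.9 FPKM with DMAG. It fell 1.24-fold, from 72.2 ± 1.26 to 58.4 ± 2.18 FPKM (log2 change -0.30, SE 0.0388, adjusted p = 0.00130), and stayed the second most abundant factor. TAL1 (ENSG00000162367, chr1:47216290-47232335) was at 0.0217, 0.0437 and 0 FPKM in controls and at 0.0450, 0.0227 and 0.0212 FPKM with DMAG. GATA1 and TAL1 did not pass either with the filter removed (adjusted p = 0.966 and 0.713).

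RUNX1 (ENSG00000159216, chr21:34787801-35049302), the core binding factor of early blood cells and megakaryocytes, had the smallest change. It was at 31.2, 34.7 and 33.3 FPKM in controls and at 30.1, 29.6 and 27.7 FPKM with DMAG, and the highest DMAG library lay just below the lowest control. The fall was 1.13-fold, from 33.0 ± 1.79 to 29.1 ± 1.28 FPKM (log2 change -0.18, SE 0.0545, adjusted p = 0.0373). The call was lost when control 2 or 3 or any 1 of the DMAG libraries was left out (adjusted p 0.0537 to 0.107), while without control 1 it held (log2 change -0.22, adjusted p = 0.0233).

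**Figure D2:**
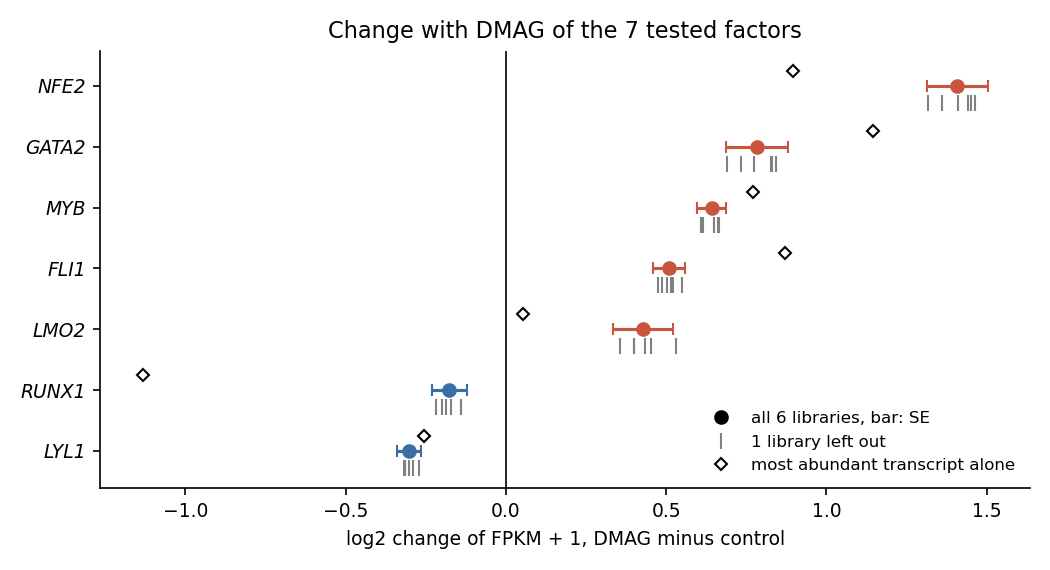
Log2 change of FPKM + 1 (DMAG minus control) of the 7 tested factors, with the SE as a bar, grey ticks for fits with 1 library left out and open diamonds for the most abundant transcript alone. The ticks stay beside the gene values, while the diamonds lie away from the gene values for RUNX1 (-1.13 against -0.18), NFE2 (0.89 against 1.41), LMO2, GATA2 and FLI1, and close to them for MYB and LYL1.

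DMAG moved GATA2 up in the order of the factors. In controls the order by mean FPKM was MYB, LYL1, RUNX1, FLI1, LMO2, GATA2, NFE2, KLF1, GATA1 and TAL1, and neither FLI1 and LMO2 nor LMO2 and GATA2 were separated, since their libraries overlapped. With DMAG, GATA2 came next after LYL1, above RUNX1, and the libraries of GATA2 (30.6 to 35.8 FPKM) did not overlap those of RUNX1 (27.7 to 30.1 FPKM). RUNX1, FLI1 and LMO2 followed with each overlapping the next, at 29.1, 28.7 and 26.5 FPKM. GATA1 and TAL1 overlapped in both groups.

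The start regions of the 3 genes KLF1, TAL1 and LYL1 are shown because each holds the letters that GATA factors bind while their mRNA levels ran from near 0 to over 50 FPKM. A window of 300 bases, from 250 before to 50 after the gene start (RefSeq, GRCh38.p14), was at hand for 7 of the 10 factors and not for NFE2, LMO2 and FLI1. Both strands were searched for GATAA and its longer form AGATAA (for GATA factors), CCACCC (KLF factors), CGGAAG (ETS factors), TGTGGT (RUNX factors), CAGCTG (E-box of TAL1 and LYL1), TGANTCA (NF-E2 and AP-1) and AACGG (MYB), and every AGATAA match is also a GATAA match. Capitals mark matches on either strand, and a GATA match on the other strand reads TTATC. All 3 regions lie on the minus strand, at chr19:13102809-13103108 for LYL1, chr1:47232286-47232585 for the first of 2 TAL1 starts and chr19:12887152-12887451 for KLF1.
LYL1: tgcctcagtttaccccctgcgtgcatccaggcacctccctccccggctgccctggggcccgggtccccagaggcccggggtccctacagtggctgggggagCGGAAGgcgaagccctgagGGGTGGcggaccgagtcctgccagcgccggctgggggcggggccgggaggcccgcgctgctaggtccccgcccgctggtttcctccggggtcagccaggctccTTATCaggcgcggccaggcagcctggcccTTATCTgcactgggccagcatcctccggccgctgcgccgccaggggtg
TAL1: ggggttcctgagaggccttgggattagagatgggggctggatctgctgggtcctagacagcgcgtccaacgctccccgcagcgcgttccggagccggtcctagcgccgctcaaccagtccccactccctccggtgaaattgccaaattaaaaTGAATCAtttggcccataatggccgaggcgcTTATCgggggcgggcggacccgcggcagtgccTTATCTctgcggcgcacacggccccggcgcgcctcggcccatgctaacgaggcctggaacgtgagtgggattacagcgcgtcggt
KLF1: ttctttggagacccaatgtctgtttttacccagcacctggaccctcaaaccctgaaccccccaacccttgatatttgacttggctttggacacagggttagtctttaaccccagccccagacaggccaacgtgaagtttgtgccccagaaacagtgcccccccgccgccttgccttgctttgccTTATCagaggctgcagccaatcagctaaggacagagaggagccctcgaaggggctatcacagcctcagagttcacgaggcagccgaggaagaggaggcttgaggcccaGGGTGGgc

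LYL1 and TAL1 each held a pair of GATAA matches, of which 1 in each was AGATAA, and KLF1 held a single GATAA match and a CCACCC match. GATAA stands in 22.7% and AGATAA in 10.3% of 35116 RefSeq windows of this length. The LYL1 window also held an ETS match (CGGAAG, in 19.5% of windows) and a CCACCC match (34.3%), and the TAL1 window a TGANTCA match (7.71%). The window of the other TAL1 start, chr1:47231666-47231965, is not shown: it held no GATAA match but 3 TGTGGT matches (found in 13.1% of windows) and an AACGG match. These letters are a description of the sequence, since no binding was measured.

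GATA2 has 2 starts in RefSeq, and both windows are shown because GATA2 rose and an antisense RNA begins beside them. They lie on the minus strand at chr3:128493152-128493451 (the outer start) and chr3:128488481-128488780 (the inner start), with capitals as above.
GATA2 outer start: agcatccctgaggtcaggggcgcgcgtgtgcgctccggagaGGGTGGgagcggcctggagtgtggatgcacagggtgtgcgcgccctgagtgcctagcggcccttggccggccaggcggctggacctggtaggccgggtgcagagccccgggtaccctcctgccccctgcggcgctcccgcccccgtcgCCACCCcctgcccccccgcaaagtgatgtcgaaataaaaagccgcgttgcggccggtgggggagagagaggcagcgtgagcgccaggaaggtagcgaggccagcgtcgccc
GATA2 inner start: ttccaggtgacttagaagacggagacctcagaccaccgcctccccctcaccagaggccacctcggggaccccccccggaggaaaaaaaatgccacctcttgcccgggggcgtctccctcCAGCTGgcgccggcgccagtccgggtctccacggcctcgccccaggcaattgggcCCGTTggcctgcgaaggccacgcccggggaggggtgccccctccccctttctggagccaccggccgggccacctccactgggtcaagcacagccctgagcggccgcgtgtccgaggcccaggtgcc

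The outer window held a pair of CCACCC matches and none of the other letters searched. The inner window held a CAGCTG match (in 17.9% of windows) and an AACGG match (19.7%). GATAA was in neither of them.

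The antisense gene GATA2-AS1 (ENSG00000244300, chr3:128489203-128503207) overlaps GATA2 on the genome and was listed with 1 transcript among the annotated long noncoding RNAs. It was at 10.1, 10.7 and 11.5 FPKM in controls and at 14.6, 13.2 and 13.0 FPKM with DMAG, so that the groups did not overlap. The means of 10.8 ± 0.679 and 13.6 ± 0.870 FPKM gave a log2 change of 0.33 on log2(FPKM + 0.1) (SE 0.0916), which missed the threshold by little (limma, adjusted p = 0.0500258). Among the 2746 lncRNA transcripts tested, 12.7% rose and 3.42% fell with DMAG, 16.1% in all, and the median log2 change was 0.20. After the libraries were brought to a common median, the change of GATA2-AS1 was 0.09 (adjusted p = 0.516). The libraries mark strand, but whether strand was used in counting is not given in the sources used here, so reads of GATA2 and GATA2-AS1 may not have been told apart.

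Single transcripts were less steady than gene sums. Of the 47 transcripts, 43 were above 0 in some library and 31 were tested, of which 4 rose, 2 fell and 25 did not pass. Over all 26969 transcripts tested, 4.58% rose and 5.7% fell. The coefficient of variation within a group was 1.74% to 13.4% for the sums of the 7 tested genes and 1.76% to 54.4% for their most abundant transcripts.

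For MYB, LYL1 and NFE2 the transcripts that passed did so in the direction of the gene, 3 of 11 tested for MYB, 2 of 2 for LYL1 and 1 of 3 for NFE2. Of the MYB transcripts that did not pass, ENST00000367814 was at -0.26 and ENST00000534044 at -0.05 (log2 change). The most abundant MYB transcript, ENST00000527615, was at 42.7, 48.9 and 51.4 FPKM in controls and at 79.2, 89.4 and 77.3 FPKM with DMAG (log2 change 0.77, adjusted p = 0.00838) and held 40.4% ± 2.13 and 44.5% ± 4.61 of the gene's FPKM, with single libraries from 38.0% to 49.8%. The other risers were ENST00000618728 (27.2 ± 2.10 to 41.7 ± 4.12 FPKM, adjusted p = 0.0188) and ENST00000430686 (18.9 ± 0.981 to 26.3 ± 2.89 FPKM, adjusted p = 0.0421). ENST00000618728 lost its call without control 2, control 3 or DMAG 3 (adjusted p 0.0562 to 0.0587) and ENST00000430686 without any 1 library but DMAG 2 (0.0960 to 0.124).

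Both LYL1 transcripts fell. ENST00000264824 held over 90% of LYL1 in every library and went from 65.9 ± 1.16 to 55.1 ± 1.73 FPKM (adjusted p = 0.0158). The minor ENST00000590974 was at 6.24, 6.01 and 6.60 FPKM in controls and at 4.04, 3.14 and 2.66 FPKM with DMAG (log2 change -0.78, adjusted p = 0.0289), and its share was 8.70% ± 0.375 in controls and 5.60% ± 1.06 with DMAG. In NFE2 the transcript that rose was ENST00000540264, at 0.613, 1.005 and 0.766 FPKM in controls and at 4.04, 4.13 and 3.64 FPKM with DMAG (log2 change 1.46, adjusted p = 0.00405). Its share of NFE2 was 14.1% to 24.1% in controls and 31.9% to 33.6% with DMAG, and the groups did not overlap. The more abundant NFE2 transcript ENST00000435572 went from 2.51 ± 0.784 to 5.49 ± 1.07 FPKM and did not pass (adjusted p = 0.0651). The LYL1 calls were lost without control 2, control 3 or DMAG 1 for ENST00000264824 (adjusted p 0.0527 to 0.0578) and without any 1 library but DMAG 1 for ENST00000590974 (0.0627 to 0.0999).

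For GATA2, LMO2, FLI1 and RUNX1 no single transcript passed (1 was higher and 1 lower at an unadjusted p under 0.05), and the split among transcripts differed between libraries of 1 group. In control 1, FLI1 was divided between ENST00000527786 (8.20 FPKM, 43.5% of the gene) and ENST00000534087 (10.6 FPKM, 56.4%), whereas the first of these held 95.9% to 99.7% of FLI1 in the other 5 libraries. In the same library ENST00000341105 held 38.5% of GATA2 and ENST00000487848 held 56.0%, against 76.4% to 84.6% for ENST00000341105 elsewhere. In DMAG library 3 ENST00000257818 held 59.4% of LMO2, at 13.5 FPKM, against 4.64% to 9.03% in the other libraries. In these 3 cases the gene sum was also the lowest of its group, at 18.9 FPKM for FLI1, 16.6 FPKM for GATA2 and 22.8 FPKM for LMO2. RUNX1 went the other way: in control 2, where ENST00000344691 held 79.4% of the gene, the sum was the highest of the controls at 34.7 FPKM.

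Without control 1 the most abundant transcripts of GATA2 (log2 change 0.74, adjusted p = 0.0338) and FLI1 (0.47, adjusted p = 0.0294) passed, and without DMAG library 3 that of LMO2 did (0.52, adjusted p = 0.0300). RUNX1 differed from these in that its split leaned with the groups. ENST00000344691 held 41.5%, 79.4% and 31.5% of RUNX1 in controls and 20.9%, 22.7% and 24.2% with DMAG, and ENST00000437180 held 24.5%, 3.66% and 32.8% in controls and 50.03%, 43.9% and 45.7% with DMAG. The groups overlapped for neither, but neither passed as a level (adjusted p = 0.122 and 0.315). Without control 2, where the first transcript was highest, its fall passed (log2 change -0.74, adjusted p = 0.0426).

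**Figure D3:**
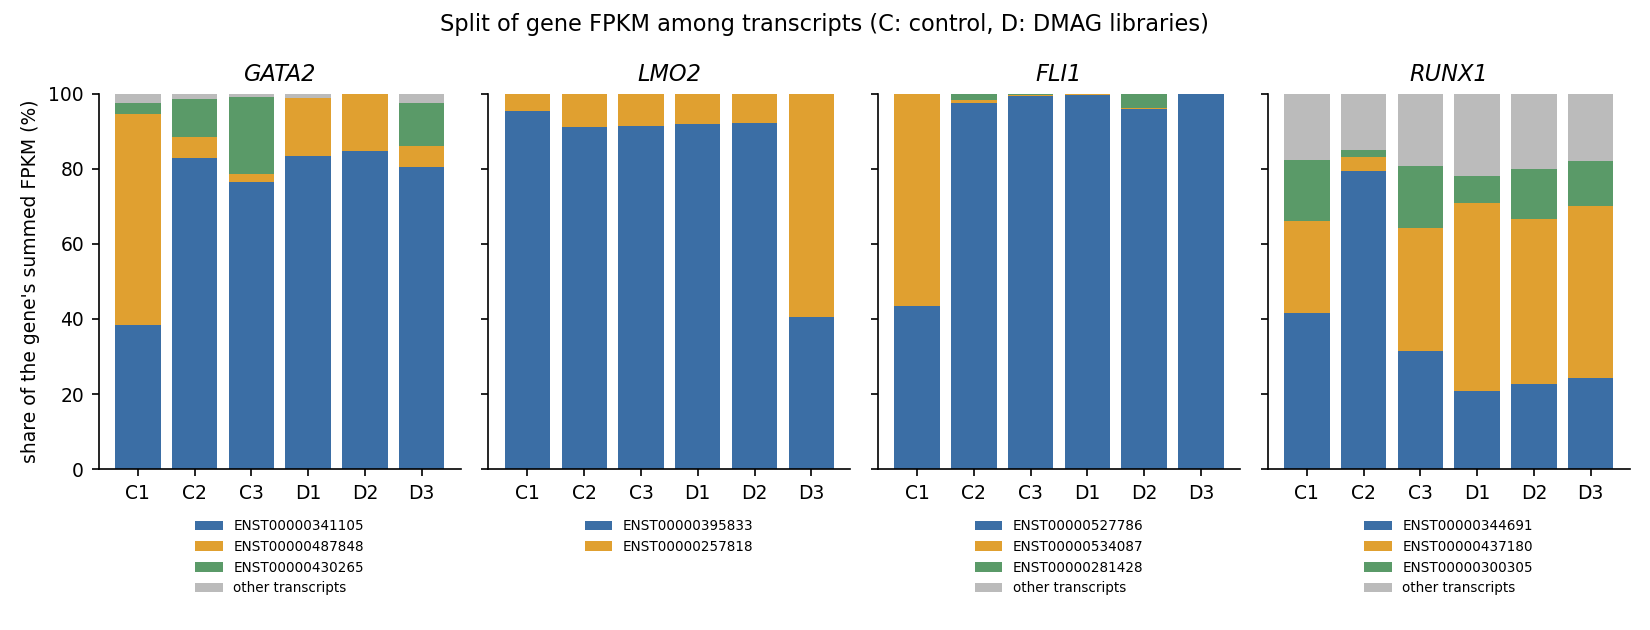
Share of each gene's summed FPKM (%) held by its transcripts, in 3 control (C1 to C3) and 3 DMAG (D1 to D3) libraries, with grey for all other transcripts. Control 1 stands apart for GATA2 and FLI1 and DMAG library 3 for LMO2, while for RUNX1 the first transcript holds 31.5% to 79.4% in controls and 20.9% to 24.2% with DMAG.

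None of the listed LDB1 complex partners was called higher. Among 11 partners of the LDB1 complex, all tested, 4 fell, 0 rose and 7 missed the threshold in the limma test, with a median log2 change of -0.15, and 0 were higher at an unadjusted p under 0.05 too. Over all genes tested 22.4% were higher and 26.1% lower, and with 1 library left out 2 or 3 of these 11 fell. LDB1 itself, the scaffold that LMO2 binds, went from 19.8 ± 0.288 to 17.8 ± 0.650 FPKM (log2 change -0.15, adjusted p = 0.0289). TCF3, an E protein that pairs with LYL1, fell from 29.0 ± 1.36 to 24.6 ± 1.51 FPKM (adjusted p = 0.0185), and SSBP4, which stabilises LDB1, from 22.3 ± 2.13 to 17.7 ± 0.549 FPKM (adjusted p = 0.0133). LMO4, a relative of LMO2, fell from 8.87 ± 0.484 to 6.55 ± 0.223 FPKM (log2 change -0.39, adjusted p = 0.00237). ZFPM1, the GATA1 partner FOG1, was at 0.803 ± 0.0509 and 0.903 ± 0.209 FPKM and did not pass. The calls of LDB1 and TCF3 were near the threshold: LDB1 lost its call without any 1 library but DMAG 2 (adjusted p 0.0610 to 0.0748), and TCF3 without control 2, control 3, DMAG 1 or DMAG 2 (0.0584 to 0.0594).

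Of 8 small MAF and cap'n'collar proteins, the partners and relatives of NFE2, 7 were tested, 0 rose (limma; 1, MAFF, at an unadjusted p under 0.05) and 3 fell, with a median log2 change of -0.21, beside 22.4% higher and 26.1% lower over all genes. MAFK, a small MAF protein that pairs with NFE2, was at 22.7, 21.3 and 20.8 FPKM in controls and at 11.5, 12.8 and 13.0 FPKM with DMAG (log2 change -0.75, adjusted p = 0.000240). It was 1.74-fold lower with DMAG while NFE2 was higher, so NFE2 and MAFK, more than 5-fold apart in controls, stood at like levels of 12.1 ± 0.824 and 12.4 ± 0.788 FPKM with DMAG. NFE2L2, the oxidative stress factor NRF2, fell from 27.2 ± 0.952 to 20.3 ± 0.634 FPKM (adjusted p = 0.000674), and NFE2L3 fell from 2.49 ± 0.197 to 1.28 ± 0.442 FPKM (adjusted p = 0.0156). MAFG, at 18.6 ± 9.42 and 23.8 ± 6.39 FPKM, varied too much to place. MAFF, at 1.27 ± 0.243 and 1.81 ± 0.210 FPKM, missed the threshold by little (limma, adjusted p = 0.0508). After the libraries were brought to a common median, or with limma run without a trend, 1 of the list was called higher.

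Among ETS and RUNX partners and relatives, 9 of 11 listed were tested, 5 rose and 0 fell (limma; also 0 lower at an unadjusted p under 0.05), with a median log2 change of 0.18, beside the same 22.4% and 26.1% over all genes. RUNX2 (-0.23), ETS2 (-0.04) and RUNX3 (-0.01) did not pass. ETS1, a lymphoid and megakaryocyte ETS factor, rose 2.08-fold, from 9.84, 9.98 and 10.5 FPKM to 21.1, 21.1 and 20.8 FPKM (log2 change 0.99, SE 0.0422, adjusted p = 3.96e-05). ETV6, an ETS repressor, rose from 34.6 ± 0.920 to 46.6 ± 1.02 FPKM (adjusted p = 0.000311), GABPA from 14.3 ± 0.240 to 18.3 ± 0.972 FPKM (adjusted p = 0.00248) and SPI1, the myeloid factor PU.1 that antagonises GATA factors, from 40.9 ± 2.31 to 50.8 ± 3.71 FPKM (adjusted p = 0.0114). The fifth riser, named after its value was seen, was CBFB, the partner of RUNX1, at 71.9 ± 0.697 and 78.0 ± 1.67 FPKM (adjusted p = 0.0240). CBFB lost its call without control 2, control 3, DMAG 1 or DMAG 2 (adjusted p 0.0607 to 0.0747), and with control 2, control 3 or DMAG 2 left out 4 of the list rose. Without control 3, 1 of the list was also called lower, so the absence of fallers depends on that library. ERG, the ETS factor closest to FLI1, was under 0.2 FPKM on average in both groups.

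The other regulator lists held calls in both directions, beside 22.4% higher and 26.1% lower over all genes tested. Of 4 MYB relatives and coactivators, MYBL2, a cell cycle relative of MYB, fell from 105.5 ± 3.58 to 86.8 ± 1.17 FPKM (log2 change -0.28, adjusted p = 0.00144), EP300, an acetyltransferase that MYB recruits, rose from 23.8 ± 0.325 to 26.4 ± 0.686 FPKM (adjusted p = 0.0212), and 2 did not pass. EP300 lost its call without control 1, control 3, DMAG 1 or DMAG 3 (adjusted p 0.0553 to 0.0643). Of 6 co-repressors 5 were tested: GFI1, a myeloid repressor, rose from 62.3 ± 4.05 to 80.5 ± 2.98 FPKM (adjusted p = 0.00279) and HDAC2 fell from 35.8 ± 5.88 to 22.5 ± 3.31 FPKM (adjusted p = 0.0124). GFI1B, the erythroid and megakaryocyte relative of GFI1, was under the level tested at 0.276 and 0.603 FPKM on average. Of 13 GATA, KLF, LMO and TAL relatives 6 were tested, all of them KLF genes. KLF13 fell from 27.0 ± 0.486 to 22.9 ± 0.828 FPKM (adjusted p = 0.00478), KLF3 fell from 9.29 ± 0.860 to 7.56 ± 0.610 FPKM (adjusted p = 0.0416, and 0.0579 after the libraries were brought to a common median, and 0.0812 to 0.111 without control 1, control 3, DMAG 2 or DMAG 3), and KLF2, named after its value was seen, was at 0.462 ± 0.0999 and 0.749 ± 0.0128 FPKM. KLF2 reached the test only through the DMAG group, and its call as higher (adjusted p = 0.0323) was lost without any 1 library but control 1 (0.0711 to 0.0977).

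Many known target genes of the factors lay under the level tested. So did many genes of the whole mRNA table, where 10394 of 19659 were tested. Of 30 erythroid target genes 17 were too low to test. Among the remaining 13 there were 2 risers and 4 that fell, and 7 missed the threshold. Over all genes tested 22.4% were higher and 26.1% lower, and these shares stand beside the counts of the target lists below too. HBA1, HBA2, HBB and ALAS2 reached the test through DMAG library 3 alone. Without that library 9 were tested, 1 rose and 4 fell, with a median log2 change of -0.13 (0.03 with it). CA2, carbonic anhydrase 2, was at 191, 186 and 183 FPKM in controls and at 75.2, 72.1 and 71.6 FPKM with DMAG (log2 change -1.35, SE 0.0356, adjusted p = 9.03e-06), a 2.56-fold fall.

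TFRC, the transferrin receptor, fell from 153 ± 13.5 to 102 ± 7.24 FPKM (adjusted p = 0.00170) and BCL11A, a repressor of fetal globin, from 26.5 ± 1.62 to 18.8 ± 1.58 FPKM (adjusted p = 0.00260). GYPC, a membrane protein also found outside red cells and named after its value was seen, fell from 12.0 ± 1.44 to 8.93 ± 0.351 FPKM. The risers were SLC25A37, the mitochondrial iron carrier mitoferrin 1 (16.2 ± 0.143 to 24.8 ± 0.731 FPKM, adjusted p = 0.000126), and EPOR (3.71 ± 0.270 to 4.49 ± 0.131 FPKM, adjusted p = 0.0305), the latter named after its value was seen. EPOR lost its call without any 1 library but control 2 (adjusted p 0.0607 to 0.0854), which left SLC25A37 as the only riser of the list.

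Of 24 megakaryocyte target genes 21 lay under the level tested. PLEK, the platelet protein pleckstrin that other blood cells share, rose from 48.8 ± 1.28 to 93.2 ± 1.47 FPKM (log2 change 0.92, adjusted p = 2.98e-05). CD226, an adhesion receptor of platelets and lymphocytes, rose from 0.863 ± 0.115 to 4.78 ± 0.706 FPKM (log2 change 1.63, adjusted p = 0.000129), but its most abundant transcript alone gave 0.36 (adjusted p = 0.598). GP1BB did not pass. ITGA2B, the integrin that defines the lineage, was at 0.0732, 0.0413 and 0.133 FPKM in controls and at 0.229, 0.330 and 0.313 FPKM with DMAG, groups apart but under the level tested. Other genes of the list under that level with groups apart went both ways. On average GP5 (0.0354 and 0.121 FPKM) and TBXAS1 (0.268 and 0.483 FPKM) were higher with DMAG, and RAB27B (0.0936 and 0.0148 FPKM) was lower.

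Of 15 progenitor and mast cell target genes 8 lay under the level tested, among them KIT, the stem cell factor receptor and GATA2 target, at 0.175 and 0.1202 FPKM on average, and CD34, at 0 in both groups. CDK6, a cell cycle kinase that MYB and RUNX1 regulate, fell from 71.1 ± 1.57 to 42.8 ± 0.868 FPKM (log2 change -0.72, adjusted p = 5.01e-05). IKZF1, the factor Ikaros, rose from 52.3 ± 1.70 to 58.3 ± 2.60 FPKM (adjusted p = 0.0333, and 0.0789 to 0.0928 without control 1, control 2, DMAG 1 or DMAG 2), and the other 5 did not pass. BCL2, a MYB target, was at 71.6 ± 1.05 and 73.9 ± 1.42 FPKM.

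**Figure D4:**
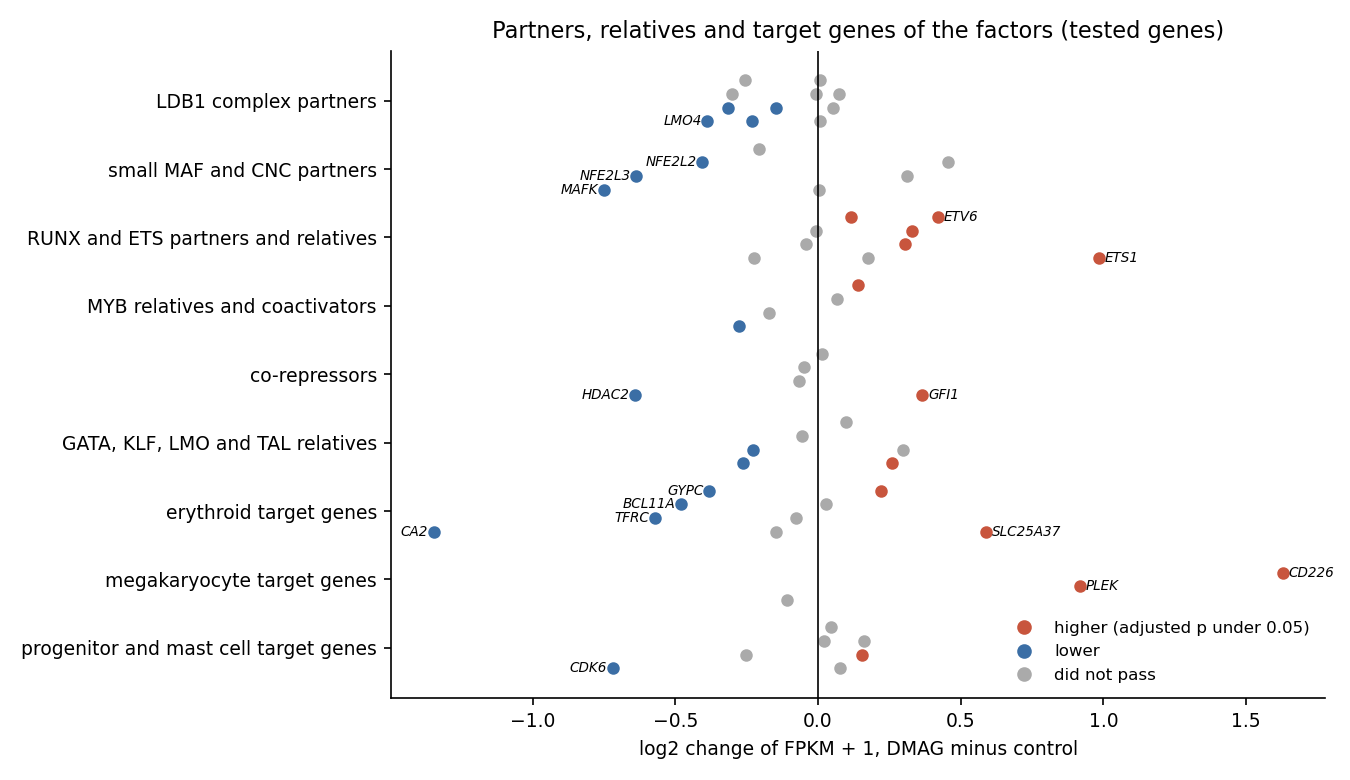
Log2 change of FPKM + 1 (DMAG minus control) of each tested gene of 9 lists of partners, relatives and targets, 1 point per gene (red, higher; blue, lower; grey, did not pass). HBA1, HBA2, HBB and ALAS2, seen in DMAG library 3 alone, are left out. The LDB1 and small MAF lists hold 4 and 3 blue points and no red one, and the ETS and RUNX list 5 red points and no blue one.

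The genes whose profile over the 6 libraries lay closest to that of a factor were found for the 3 factors with the largest changes, as the smallest root mean square difference of log2(FPKM + 1) after each profile was centred on its mean. For NFE2 these were LRG1, a secreted glycoprotein (2.65 ± 0.222 to 8.10 ± 0.271 FPKM, difference 0.0776), TMEM71 (1.03 ± 0.0636 to 4.36 ± 0.365 FPKM, 0.0801) and GAA, the lysosomal acid alpha-glucosidase (3.95 ± 0.206 to 12.5 ± 0.703 FPKM, 0.0826). For GATA2 they were APBB1IP, an integrin adaptor (2.46 ± 0.427 to 4.67 ± 0.282 FPKM, 0.0638), TAF8 (11.3 ± 1.39 to 19.3 ± 0.285 FPKM, 0.0642) and RMI2 (10.5 ± 0.631 to 18.5 ± 0.368 FPKM, 0.0688). For MYB they were MYO1A (0.311 ± 0.0528 to 0.972 ± 0.0778 FPKM, 0.0290), TMEM154 (8.64 ± 0.496 to 14.2 ± 0.667 FPKM, 0.0338) and DMXL2 (29.1 ± 0.594 to 45.1 ± 0.766 FPKM, 0.0373). Since the libraries fall into 2 groups, such likeness is mostly a like step between the groups. MYO1A, under 0.5 FPKM on average in controls, reached the test only through the DMAG group. The change of so low a gene is understated on log2(FPKM + 1), so its likeness to MYB is one on that scale.

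Small RNA libraries give a further view of the network, through 25 miRNAs known to be targets or regulators of these factors. Of them 21 were tested and 4 had too few reads. With DMAG 7 rose, 4 fell and 10 did not pass (edgeR quasi-likelihood test, adjusted p under 0.05), with 21.4% higher and 23.8% lower, 45.3% in all, of 583 miRNAs, and the median log2 change was 0.16 against -0.08 over all miRNAs. The split depended on scaling: with no scaling beyond the library total, where the median over all miRNAs was -0.28, 5 rose and 8 fell, and with relative log expression (RLE) scaling 9 rose and 2 fell. Levels are CPM, counts scaled to the library total and adjusted by trimmed mean of M-values.

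The mature sequences of the miRNAs that changed are shown because the seed, bases 2 to 8 in capitals, sets which mRNAs a miRNA can pair with (RefSeq, GRCh38.p14). RefSeq sequences matched 22 of the 25 miRNAs.
miR-223-5p: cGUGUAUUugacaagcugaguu
miR-223-3p: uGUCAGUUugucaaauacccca
miR-222-3p: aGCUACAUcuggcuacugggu
miR-221-3p: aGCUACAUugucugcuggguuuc
miR-23a-3p: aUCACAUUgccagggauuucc
miR-16-5p: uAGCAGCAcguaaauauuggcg
miR-146a-5p: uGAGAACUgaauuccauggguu
miR-17-5p: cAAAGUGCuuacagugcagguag
miR-106a-5p: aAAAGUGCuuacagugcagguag
miR-142-3p: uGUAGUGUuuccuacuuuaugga
miR-27a-3p: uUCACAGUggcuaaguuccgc

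miR-223 is a myeloid miRNA, and both of its arms rose. miR-223-5p was at 2112, 1765 and 1954 CPM in controls and at 4919, 4796 and 4526 CPM with DMAG (log2 change 1.29, adjusted p = 1.44e-07). miR-223-3p rose from 5905 ± 411 to 9224 ± 68.9 CPM (log2 change 0.64, adjusted p = 1.27e-05). miR-222-3p and miR-221-3p share the seed GCUACAU and are known to repress KIT. miR-222-3p rose from 5919 ± 586 to 10539 ± 415 CPM (log2 change 0.83, adjusted p = 6.03e-06) and miR-221-3p from 10324 ± 502 to 13856 ± 793 CPM (log2 change 0.42, adjusted p = 0.000441). Libraries of the 2 groups did not overlap for any of these 4.

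The remaining 7 miRNAs that changed are named after their values were seen. miR-23a-3p rose from 3132 ± 241 to 4117 ± 132 CPM. miR-16-5p, which is known to target MYB, rose from 3512 ± 198 to 4191 ± 131 CPM, and miR-146a-5p from 1162 ± 82.5 to 1382 ± 40.1 CPM. The last 2 did not pass without scaling (log2 changes of 0.06 and 0.06, adjusted p = 0.442 and 0.471), and miR-146a-5p lost its call without DMAG 2 (adjusted p = 0.0537). miR-15a-5p, with the same seed as miR-16-5p, was at 139 ± 10.1 and 156 ± 12.7 CPM and did not pass.

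Of 5 miRNAs with the seed AAAGUGC, a family known to act on RUNX1 in monocyte maturation, 2 fell. miR-17-5p fell from 33706 ± 2584 to 24846 ± 1113 CPM (log2 change -0.44, adjusted p = 0.000568), and miR-106a-5p went from 60.1 ± 4.23 to 48.7 ± 1.35 CPM, a call that RLE scaling did not keep (adjusted p = 0.102) and that was lost with any 1 library left out (0.0527 to 0.253). miR-20a-5p (69873 ± 8892 and 64033 ± 2797 CPM), miR-106b-5p and miR-93-5p did not pass. With no scaling beyond the library total each of these was called lower (log2 changes -0.32, -0.27 and -0.20, adjusted p = 0.00219, 0.00720 and 0.00598 in the edgeR test). The sequences of the family are near-identical, so the division of reads among them by the authors' counting is uncertain. miR-142-3p, a miRNA widely expressed in blood cells, fell from 35307 ± 2239 to 26298 ± 715 CPM, and miR-27a-3p, which targets RUNX1, from 5691 ± 838 to 4704 ± 311 CPM with libraries that overlapped (adjusted p = 0.0386, 0.109 with RLE scaling and 0.0605 to 0.1802 without any 1 library but control 3).

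GATA1 is known to switch on the miR-144 and miR-451a locus, and these miRNAs were scarce. miR-451a had 82, 162 and 75 reads in controls and 70, 30 and 75 with DMAG, and miR-144-3p had 4, 1 and 3 reads in controls and 1, 0 and 0 with DMAG. For miR-451a, a miRNA abundant in red cells, the small RNA library of DMAG sample 3 was at 15.5 CPM. The DMAG libraries 1 and 2 were at 14.0 and 6.57 CPM, and the controls at 12.2 to 33.3 CPM. How this relates to the globin mRNA of the RNA-Seq library with that number was not tested. miR-150-5p, which targets MYB, was at 7.06 ± 1.76 and 7.30 ± 2.83 CPM and did not pass.

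**Figure D5:**
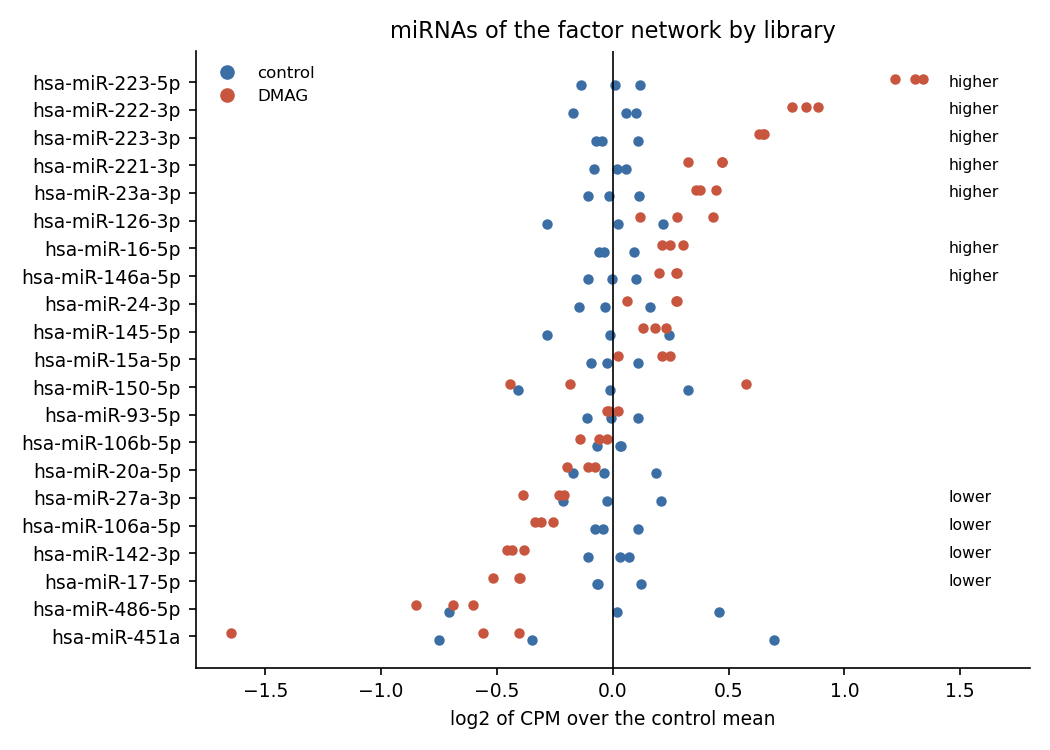
Log2 of CPM over the control mean for the 21 tested miRNAs of the network, 1 point per library (blue, control; red, DMAG), with the call at the right where the test passed. miR-223-5p and miR-222-3p lie farthest to the right, and miR-17-5p and miR-142-3p are the lowest of those that passed.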

How the data were processed

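The authors deposited FPKM per mRNA and annotated lncRNA transcript, and read counts and TPM per miRNA, of which only the counts were used. Tools in the submitters' processing notes are Bowtie, HISAT2 2.0.4 and StringTie 1.3.3, with no roles, and the build is GRCh38. How reads were counted is not stated there. RNA-Seq depth is unknown, and miRNA counts summed to 4303596 to 6003077 per library. After summing transcripts per gene, those at 0.5 FPKM or more on average were compared on log2(FPKM + 1), which understates changes of low genes, with limma 3.58.1 (empirical Bayes with trend, R 4.3.3). Transcripts were tested likewise, and lncRNAs from 0.1 FPKM on average, on log2(FPKM + 0.1). The miRNA counts were tested with edgeR 4.0.16 (quasi-likelihood, TMM, filterByExpr with a minimum count of 10), with DESeq2 1.42.0 as an alternative. All p-values were adjusted by Benjamini-Hochberg over each whole table and called under 0.05, with all 6 libraries in each fit and no covariate.

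The members and lists were chosen with earlier results of these data known, and no list was tested as a set. Named by rule were all 10 factors, per list up to 4 called genes with the smallest p at 1 FPKM or more, the 4 listed miRNAs with the smallest p at 10 CPM or more and 3 nearest genes for each of 3 factors. Called genes and miRNAs of the lists outside this rule are marked as named after their values were seen. Those not called or not tested, such as ITGA2B, KIT and miR-451a, and the cell type markers were named outside the rule without a mark. GATA2-AS1 was matched by gene ID and sequences by symbol or miRNA name. Circular RNA and unannotated lncRNA tables were not used here. On simulated data with 200 features changed per table, the gene test, on 10394 genes, found 63% of log2 changes of 0.5 and 90% of changes of 1 (3.82% and 6.25% of calls false). For a change of 1, this was 48% among 26969 transcripts (14.3% false), 82% among 2746 lncRNA transcripts (6.29%) and 83.5% among 583 miRNAs (2.34%). In the FPKM tables the changed features were drawn above a minimum level. A far larger share was called in the real data (48.6% of genes), so these rates need not hold there. Alternatives were other pseudocounts, filters and scalings, the most abundant transcript per gene, leaving out single libraries and a replicate block.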

Additional observations from a re-analysis of the deposited data

How the results depend on the processing

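The 7 factors kept their direction under every alternative run, and MYB, NFE2 and LYL1 also kept their calls. With the most abundant transcript in place of the gene sum, GATA2 (1.15, adjusted p = 0.0666), LMO2 (0.0518, adjusted p = 0.945), FLI1 (0.87, adjusted p = 0.122) and RUNX1 (-1.13, adjusted p = 0.0627) did not pass, which left 2 factors higher and 1 lower. NFE2 passed at 0.89 against 1.41. Among named listed genes TCF3, LDB1, GABPA, SPI1, CBFB, HDAC2, BCL11A, GYPC, EPOR, KLF2, CD226 and IKZF1 were not called in that setting, and SSBP4 turned to 0.94 (adjusted p = 0.361). Over all genes that setting called 1586 higher and 1768 lower, against 2333 and 2717. With 1 library left out, RUNX1 ranged from -0.22 to -0.14, factors lower from 1 to 2, member transcripts higher from 2 to 6 and lower from 0 to 1, listed miRNAs higher from 6 to 11 and lower from 2 to 5. Listed miRNAs lower were 8 with no scaling, 2 with RLE and 2 with DESeq2. GATA2-AS1 passed with a pseudocount of 1, chosen after seeing the data (0.31, adjusted p = 0.0497), and did not pass with a library left out (adjusted p 0.0663 to 0.140). The causes of these losses were not tested.

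Control and DMAG samples share replicate numbers in the labels, but deviations of same-numbered samples correlated at only -0.0048, 0.0426 and 0.0270 (mRNA) and -0.0123, 0.0026 and -0.0099 (miRNA), so the numbers were not taken as pairs. With the replicate block RUNX1 (-0.18, adjusted p = 0.0716) did not pass, 1 factor was lower, 8 listed genes were higher against 13, and 0 member transcripts were higher and 0 lower. The unknown RNA-Seq depth limits what can be said of GATA1, TAL1 and KLF1.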
